A study of Fragaria vesca with 9 samples.

Results

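FvH4_6g50700 is the gene of woodland strawberry, Fragaria vesca, whose protein carries the Swiss-Prot name 2-methylene-furan-3-one reductase, the enzyme that forms the aroma compound furaneol. It was taken by its gene ID, as 1 of 34777 genes in the authors' table. The table gives the same name to 2 other genes, FvH4_6g50701 and FvH4_4g34500, which are described beside it. FvH4_6g50700 lies on chromosome 6 from 37684958 to 37687209 on the plus strand, with a listed gene length of 1416 bases in a span of 2252 bases. Its listed Pfam domains are an alcohol dehydrogenase GroES-like domain and a zinc-binding dehydrogenase domain. Positions are copied from the authors' table, and the genome build behind them is not given in the sources used here.

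Furaneol is a furanone with a caramel-like smell and one of the key aroma compounds of ripe strawberries. The reductase, also called quinone oxidoreductase or enone oxidoreductase, uses NAD(P)H to reduce a double bond in a reactive furanone precursor that is derived from fructose bisphosphate. This activity was shown with the enzyme of cultivated strawberry, where transcript and protein increase as the fruit ripens, and tomato has a counterpart. In strawberry fruit furaneol can be methylated by an O-methyltransferase to mesifurane, or stored after a glycosyltransferase has attached glucose.

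The 9 libraries came from polyadenylated RNA of fruits sampled 26 days after anthesis, 3 from wild type and 3 from each of the mutant lines Fvmate51-1 and Fvmate51-2. Both lines carry a mutation in FvMATE51, which the series title calls a vacuolar membrane protein, and MATE proteins are transporters of organic compounds. The sample titles put the letters cr before the line names, but the labels do not spell out the kind of mutation. They also do not give the number of plants behind a line or whether replicates were separate plants. The p-values therefore speak only of how far these samples spread, and that spread may be technical. No gene description names MATE51 (0 descriptions), so the mutated gene's own level was not checked here.

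Fragments in listed genes numbered 31587667 to 51649115 per library. Wild type replicate 3 and Fvmate51-1 replicate 2 stood apart from the other replicates of their groups. On the third principal component (7.02% of the variance) they scored 19.4 and 14.8, and the other 7 libraries scored from -12.7 to 4.32. The share of fragments assigned to no listed gene ran from 1.78 to 3.71% in wild type, from 4.49 to 10.1% in Fvmate51-1 and from 0.099 to 1.5% in Fvmate51-2. These fragments count in the FPKM scale, so levels are given on other scales as well. The summed level of 136 genes named for fruit flesh enzymes, polygalacturonases and pectate lyases among them, was 13100 to 13200 FPKM in wild type, 10100 to 11100 in Fvmate51-1 and 11400 to 11700 in Fvmate51-2. Achene and seed genes summed to 331 to 456 FPKM over all libraries, green tissue genes to 26.2 to 40.9 and pollen and anther genes to at most 1.32.

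FvH4_6g50700 was among the most abundant transcripts of the fruit. By FPKM, the fragments per gene scaled to gene length and library size, it had rank 3 of all listed genes in every wild type library and in Fvmate51-1 replicates 1 and 3, and rank 4 in Fvmate51-1 replicate 2 and in every Fvmate51-2 library. The genes above it by mean level were FvH4_5g18321, named 14 kDa proline-rich protein DC2.15, and FvH4_3g20030, named metallothionein-like protein 1. Of all fragments in listed genes, the single gene held 0.921%, 0.94% and 1.12% in wild type replicates 1, 2 and 3. Its share was 0.788%, 0.806% and 0.815% in Fvmate51-1 and 0.761%, 0.765% and 0.73% in Fvmate51-2. The 254518 to 581023 fragments per library gave exact Poisson 95% intervals of ± 0.257 to 0.389% of the count. Intervals cover counting error only and take each count as an independent fragment. They were far narrower than the differences between replicates.

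The reductase transcript was lower in both mutant lines than in wild type, by about the same amount in each. It stood at 6260, 6483 and 7803 FPKM in wild type replicates 1, 2 and 3. The values were 5307, 5113 and 5499 FPKM in Fvmate51-1 and 5294, 5399 and 5120 FPKM in Fvmate51-2. All 6 mutant values lay below the lowest wild type value, the values of the mutant lines overlapped, and wild type replicate 3 was the highest of all. The means were 6849 ± 834 FPKM (SD, n = 3), 5306 ± 193 (n = 3) and 5271 ± 141 (n = 3), so wild type was 1.29-fold above Fvmate51-1 and 1.3-fold above Fvmate51-2. The coefficient of variation was 12.2% in wild type, 3.63% in Fvmate51-1 and 2.67% in Fvmate51-2. In bulk tissue, fewer cells that make a transcript and less transcript per cell cannot be told apart. The summed level of the fruit flesh genes was also lower in the mutant lines, as given above, on the FPKM scale. Much of that sum came from few genes, such as polygalacturonase FvH4_6g41380 (mean 4370 FPKM) and pectate lyase FvH4_4g05760 (mean 2260 FPKM). Of the 34 tested fruit flesh genes, 15 were called lower, 2 higher and 17 not called for both lines together. That is 50% called, against 34.9% of all tested genes. The comparison for both lines together sets the mean of the mutant line means against wild type. A call in it need not hold in each line. Of 14 tested achene and seed genes, 9 were called lower, 2 higher and 3 not called for both lines together (78.6% called, median log2 change -0.57). The part of either set of genes in the difference of the reductase was not tested.

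**Figure D1:**
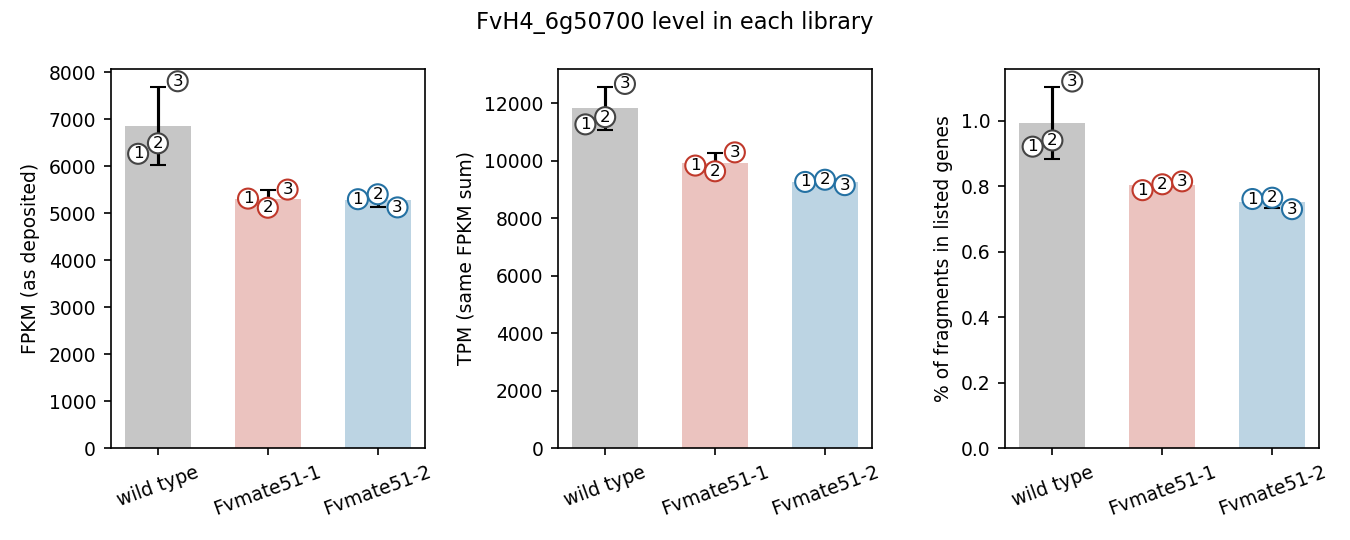
Level of FvH4_6g50700 in each library on 3 scales: FPKM as deposited, TPM (all libraries brought to an equal total of FPKM) and the percentage of fragments in listed genes. Bars are group means, whiskers are ± SD over 3 libraries and circled digits are replicate numbers; on every scale all mutant libraries lie below all wild type libraries, and wild type replicate 3 is the highest.

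For both lines together against wild type, the log2 change was -0.37 ± 0.0963 (SE), and it passed the test (limma adjusted p = 0.0148, 95% interval -0.58 to -0.15). In this comparison 34.9% of 15890 tested genes were called (18.1% of the tested genes as lower and 16.8% as higher), so a call by itself does not set the gene apart. All 6 mutant values lay below all 3 wild type values in 12.4% of tested genes, and 12.6% of tested genes had a more negative log2 change. An exact two-sided permutation test on log2 FPKM over the 84 ways of dividing the libraries gave p = 0.0238. Its two-sided value is the doubled one-sided value, and 0.0238 is the smallest that this rule allows. It follows from the lack of overlap. Without wild type replicate 3 the log2 change was -0.27 (limma adjusted p = 0.0176), and without both libraries that stood apart it was -0.26 (limma adjusted p = 0.00384). The call was lost with no filter on low values (log2 change -0.37, limma adjusted p = 0.216) and with quantile normalization (log2 change -0.14, limma adjusted p = 0.0917).

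Taken separately, the log2 change was -0.36 ± 0.111 in Fvmate51-1 (limma adjusted p = 0.0285) and -0.37 ± 0.111 in Fvmate51-2 (limma adjusted p = 0.0285). These comparisons share the wild type libraries. In Fvmate51-1 35.5% of tested genes were called, 19% lower and 16.5% higher, and in Fvmate51-2 30.4%, 15.1% lower and 15.3% higher. All 3 libraries lay below all wild type libraries in 24.6% of tested genes in Fvmate51-1 and in 23.8% in Fvmate51-2. Higher genes made up 46.4% of the calls in Fvmate51-1, and 62% in TPM, where all libraries have an equal total. Over both lines these shares were 48.2% and 57.8%. Both calls lay close to the threshold. That of Fvmate51-1 was lost without its replicate 1 (limma adjusted p = 0.0835), without its replicate 3 (0.0561) and without Fvmate51-2 replicate 1 (0.0514). That of Fvmate51-2 was lost without any 1 of its own replicates 1, 2 and 3 (limma adjusted p = 0.0847, 0.071 and 0.0946), without wild type replicate 2 (0.0509) and without Fvmate51-1 replicate 1 (0.0514). Leaving out wild type replicate 3 changed the estimates to -0.26 and -0.27, and both calls held (limma adjusted p = 0.0269 and 0.0255). With 3 libraries against 3, an exact permutation test cannot go below p = 0.1, which is the value it gave for each line.

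**Figure D2:**
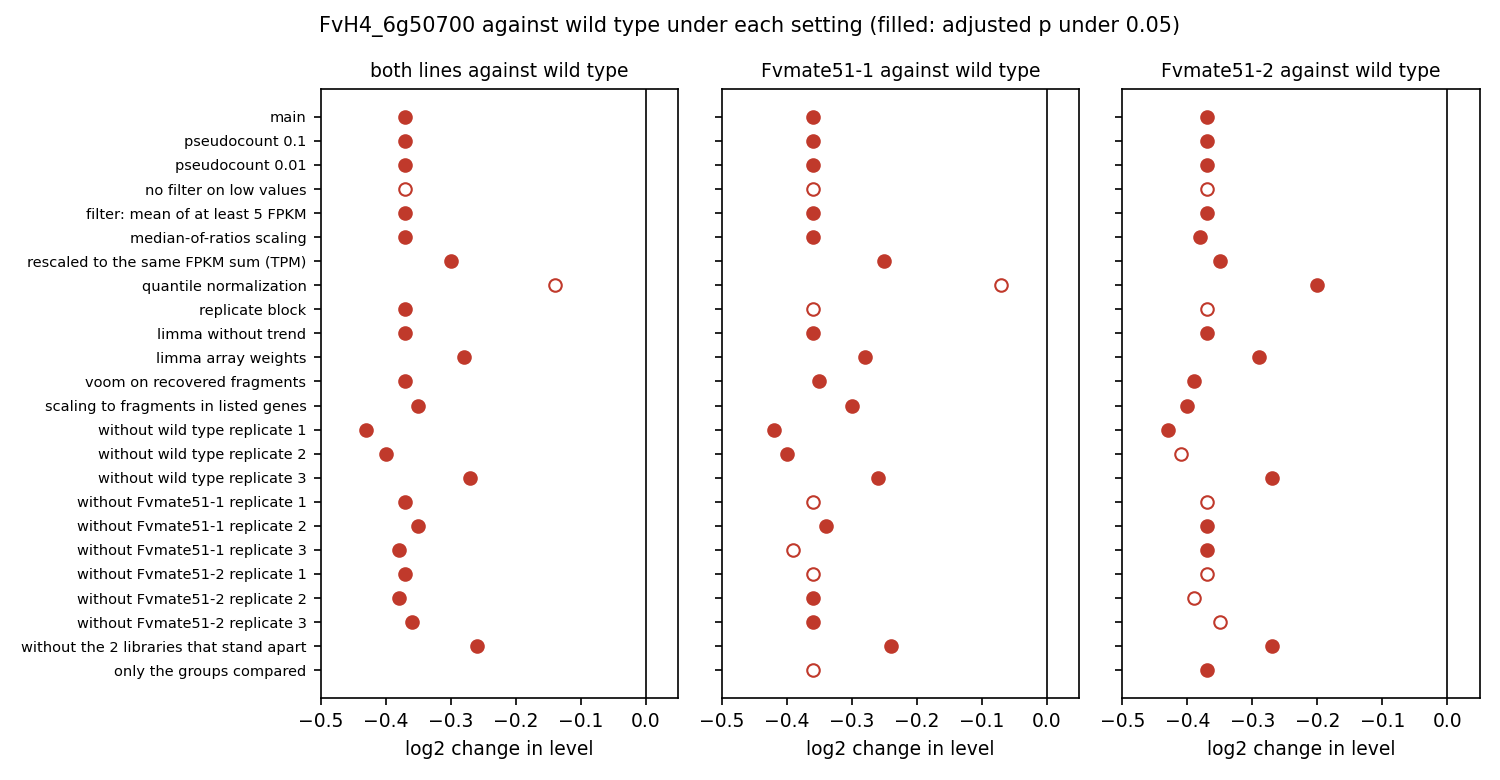
Log2 change of FvH4_6g50700 against wild type (x axis) under the main setting and each alternative (rows), for both lines together and for each line. Filled points passed the test at an adjusted p under 0.05 and open points did not; all points lie below 0, between -0.43 and -0.07, and the points of quantile normalization lie nearest to 0.

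The scale changed the size of the difference more in Fvmate51-1 than in Fvmate51-2. In TPM the group means were 11816 ± 750 in wild type, 9917 ± 338 in Fvmate51-1 and 9249 ± 94.8 in Fvmate51-2, making wild type 1.19-fold and 1.28-fold higher. Scaled to the fragments in listed genes, wild type was 1.24-fold and 1.32-fold higher. Under quantile normalization the log2 change shrank to -0.07 in Fvmate51-1 (limma adjusted p = 0.453) and to -0.2 in Fvmate51-2 (limma adjusted p = 0.0403). That method gives the gene of a given rank the same value in every library, and FvH4_6g50700 moved only between ranks 3 and 4.

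The mutant lines did not differ from each other in this gene by the test. The log2 difference of Fvmate51-2 minus Fvmate51-1 was -0.01 ± 0.111 (limma adjusted p = 0.964), with a 95% interval of -0.26 to 0.24. In this comparison 27.6% of tested genes were called, and 5.9% of tested genes were called lower in each line and not called between the lines. Higher genes made up 55.9% of the calls between the lines, and 40.3% in TPM and 41.1% when scaled to listed fragments. In TPM the Fvmate51-1 libraries held 9631 to 10289 of FvH4_6g50700 and the Fvmate51-2 libraries 9149 to 9337, without overlap, and the log2 difference was -0.1 (limma adjusted p = 0.34). On the FPKM scale, where FvH4_6g50700 overlapped, 21.1% of tested genes had every Fvmate51-2 library below every Fvmate51-1 library.

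FvH4_6g50701 starts 216 bases after the end of FvH4_6g50700 on the same strand, on chromosome 6 from 37687426 to 37689045. It carries the same Swiss-Prot name and the zinc-binding dehydrogenase domain, but no GroES-like domain is listed for it. The sources used here do not say how fragments that fit more than 1 gene were assigned, so part of its count could belong to the more abundant neighbour. Its level was 5.5, 6.24 and 5.57 FPKM in wild type, 7.03, 9.42 and 6.1 in Fvmate51-1 and 5.48, 5.5 and 5.9 in Fvmate51-2. Fvmate51-1 replicate 2 was the highest. Wild type overlapped with each mutant line, while all Fvmate51-2 values lay below all Fvmate51-1 values, a gap found in 21.1% of tested genes. The level of FvH4_6g50700 was 543 to 1401 times that of FvH4_6g50701, as a ratio of FPKM within a library.

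No difference in FvH4_6g50701 passed the test. Its log2 change was 0.31 ± 0.129 in Fvmate51-1 (limma adjusted p = 0.0817) and -0.03 ± 0.129 in Fvmate51-2 (limma adjusted p = 0.879). Between the lines, Fvmate51-2 minus Fvmate51-1, it was -0.34 ± 0.129 (limma adjusted p = 0.0741). Without Fvmate51-1 replicate 3 the first and the last of these passed, at log2 0.44 (limma adjusted p = 0.0292) and -0.47 (limma adjusted p = 0.0242). In TPM they passed as well, at 0.41 (limma adjusted p = 0.0413) and -0.42 (limma adjusted p = 0.0439). Without Fvmate51-1 replicate 2 they shrank to 0.16 (limma adjusted p = 0.233) and -0.19 (limma adjusted p = 0.199).

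FvH4_4g34500, on chromosome 4 from 32245678 to 32248103, is matched to the furanone reductase of tomato and has both domains. It had 2, 6 and 7 fragments in wild type, 2, 0 and 0 in Fvmate51-1 and 0, 4 and 2 in Fvmate51-2. All its values were at or below 0.0993 FPKM. A library with 0 fragments allows up to 0.0567 FPKM (3 fragments), if each count is an independent fragment. It did not pass the filter on low values, and no fold change is given. Of the 3 genes with this name, FvH4_6g50700 therefore held nearly all of the transcript in every library.

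**Figure D3:**
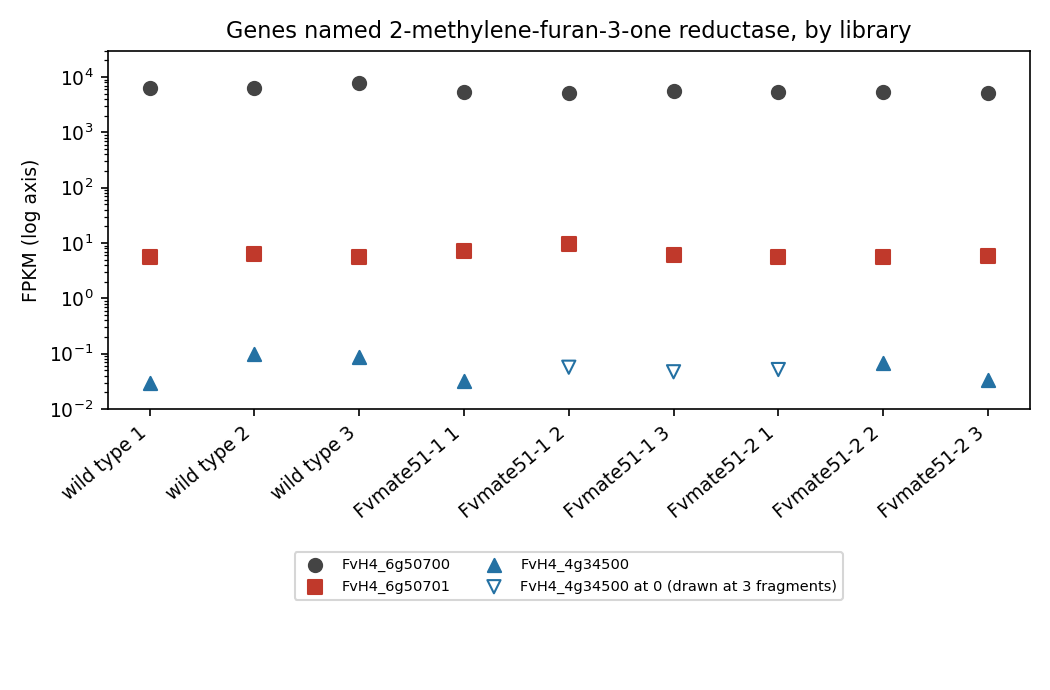
Level in FPKM (log axis) of the 3 genes named 2-methylene-furan-3-one reductase in each of the 9 libraries. FvH4_6g50700 lies between 5113 and 7803, FvH4_6g50701 between 5.48 and 9.42 and FvH4_4g34500 at or below 0.0993; open triangles mark libraries with 0 fragments of FvH4_4g34500, drawn at the level of 3 fragments.

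Genes of the steps before and after the reductase were grouped by words in their Swiss-Prot names. Calls in the following lists are for both lines together against wild type unless a line is named. Such a call rests on the mean of the line means and can come from a single line. For both lines, 16.8% of all tested genes were called higher, 18.1% lower, and the median log2 change of all tested genes was 0.001. Counts by line stand against 16.5% of all tested genes called higher and 19% lower in Fvmate51-1. In Fvmate51-2 15.3% were called higher and 15.1% lower. Values in FPKM are the mean ± SD of 3 libraries, in the order wild type, Fvmate51-1 and Fvmate51-2.

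Of the enzymes that make and use fructose bisphosphate, 16 of 27 were tested, 3 were higher, 2 lower and 11 not called (31.2% called, median log2 change -0.02). By line, 3 were higher and 3 lower in Fvmate51-1, and 3 higher and 0 lower in Fvmate51-2. Phosphofructokinase 4 FvH4_7g26950, which phosphorylates fructose 6-phosphate, rose from 15.3 ± 2.47 to 23 ± 0.926 and 19.1 ± 0.489. Its call in Fvmate51-2 (limma adjusted p = 0.0466) held only without wild type replicate 1 or Fvmate51-1 replicate 2, and was lost without any other single library (log2 change 0.18 without wild type replicate 3, limma adjusted p = 0.089). The alpha subunit of pyrophosphate-dependent phosphofructokinase FvH4_5g26380 stood at 169 ± 10.8, 189 ± 9.65 and 218 ± 5.09, a rise that passed in Fvmate51-2 (limma adjusted p = 0.00339) and not in Fvmate51-1 (limma adjusted p = 0.1). Plastid triosephosphate isomerase FvH4_2g02030, which interconverts the triose phosphates, fell in Fvmate51-1 from 135 ± 8.6 to 103 ± 6.81 and stood at 121 ± 3.23 in Fvmate51-2, where it did not pass (limma adjusted p = 0.136). The list also caught FvH4_7g12930, an enzyme that methylates aldolase, at 7.29 ± 0.855, 10.1 ± 0.893 and 8.51 ± 0.151. Without wild type replicate 3 its call for both lines was lost (log2 change 0.23, limma adjusted p = 0.0522).

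Relatives of the reductase among quinone oxidoreductases and alkenal reductases moved in both directions, and 31 of 64 were tested. Of these 9 were higher, 9 lower and 13 not called (58.1% called, median log2 change -0.03). Against wild type 9 were higher and 12 lower in Fvmate51-1, and 8 higher and 6 lower in Fvmate51-2. The name pattern also caught subunits of organelle NAD(P)H dehydrogenases. FvH4_1g00340 and FvH4_1g00345, which lie near each other on chromosome 1, are named alkenal reductases, enzymes that reduce reactive carbonyls. FvH4_1g00340 fell from 6.02 ± 0.497 to 0.0736 ± 0.0709 in Fvmate51-1 and rose to 13.9 ± 1.14 in Fvmate51-2. For both lines together it was called lower (log2 change -0.81, limma adjusted p = 6.83e-05) in spite of that rise. With a pseudocount of 0.01 the rise did not pass (log2 change 1.21, limma adjusted p = 0.0629). Fvmate51-1 held 2, 8 and 2 fragments of this gene, so its log2 change there depends on the pseudocount (-2.71 with 1, -5.21 with 0.1 and -6.49 with 0.01). FvH4_1g00345 stood at 42.6 ± 1.39 and 38.8 ± 0.292, and rose in Fvmate51-2 to 79.1 ± 3.57. The PIG3-like quinone oxidoreductase FvH4_3g04320 fell in Fvmate51-1, from 64.2 ± 1.61 to 40.7 ± 0.584, and was 56.8 ± 2.42 in Fvmate51-2. By FPKM, all 4 of the relatives with the lowest adjusted p had group means of at most 79.1 FPKM, far under FvH4_6g50700.

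O-methyltransferases, the class that methylates furaneol, were called in 5 of 16 tested cases of 45 (3 higher, 2 lower and 11 not called, 31.2% called, median log2 change 0.02). By line, 4 were higher and 2 lower in Fvmate51-1, and 3 higher and 3 lower in Fvmate51-2. FvH4_6g45070, named xanthohumol 4-O-methyltransferase after a hop enzyme, was the most abundant of those named here. It stood at 1480, 1520 and 1710 FPKM in wild type, 2370, 2410 and 2380 in Fvmate51-1 and 3190, 3260 and 3080 in Fvmate51-2. The groups did not overlap and wild type was lowest, whereas for the reductase wild type was highest. Such a gap upward from wild type was found in 22.4% of tested genes in Fvmate51-1 and 25.9% in Fvmate51-2, and from Fvmate51-1 to Fvmate51-2 in 25.1%. Its log2 change was 0.61 ± 0.0873 in Fvmate51-1 (limma adjusted p = 0.000486) and 1.02 ± 0.0873 in Fvmate51-2 (limma adjusted p = 1.17e-05). Whether its product acts on furaneol is not known from the table. Caffeoyl-CoA O-methyltransferase FvH4_2g05780, an enzyme of lignin synthesis, rose from 175 ± 16.1 to 251 ± 17.2 and 443 ± 24.7, and a gene named for a reticuline methyltransferase, FvH4_5g17220, from 0.583 ± 0.164 to 1.38 ± 0.206 and 3.12 ± 0.271. FvH4_1g13960, a second caffeoyl-CoA type, fell from 304 ± 31 to 161 ± 6.56 and 231 ± 8.99.

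The methyltransferase of cultivated strawberry that forms mesifurane is of the caffeic acid 3-O-methyltransferase type, so the genes of that name were looked up after other values had been seen. FvH4_7g32990 stood at 72.5 ± 1.83, 60.3 ± 11.7 and 66.7 ± 0.843 and passed in neither line (limma adjusted p = 0.0886 and 0.47). FvH4_5g10440 was 62.9 ± 0.844 in wild type and 61.4 ± 2.24 in Fvmate51-1 (limma adjusted p = 0.705), and fell to 52.1 ± 2.3 in Fvmate51-2 (limma adjusted p = 0.01). Without Fvmate51-2 replicate 1 that fall did not pass (log2 change -0.23, limma adjusted p = 0.054).

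Glycosyltransferases of the name groups that include strawberry fruit enzymes were tested in 17 of 37 cases, and 4 were higher, 8 lower and 5 not called (70.6% called, median log2 change -0.13). In Fvmate51-1 2 were higher and 6 lower (median -0.14), and in Fvmate51-2 5 were higher and 4 lower (median 0.07). Which of them, if any, uses furaneol is not known from the table. FvH4_6g39350 rose from 1.37 ± 0.213 to 2.11 ± 0.219 and 7.03 ± 0.698. The call in Fvmate51-1 was lost without its replicate 1 (log2 change 0.34, limma adjusted p = 0.0737) and without its replicate 3 (0.39 and 0.0511). FvH4_6g39430, of the same name, stood at 88.5 ± 8.63 and 77.7 ± 5.18 and rose to 165 ± 3.68 in Fvmate51-2. FvH4_6g39401 fell in Fvmate51-1, from 7.22 ± 1.66 to 1.14 ± 0.264, and was 6.98 ± 0.468 in Fvmate51-2. FvH4_6g17070, named UDP-glycosyltransferase 73C3, fell in both lines, from 27.2 ± 0.565 to 19.7 ± 0.511 and 15 ± 0.511.

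**Figure D4:**
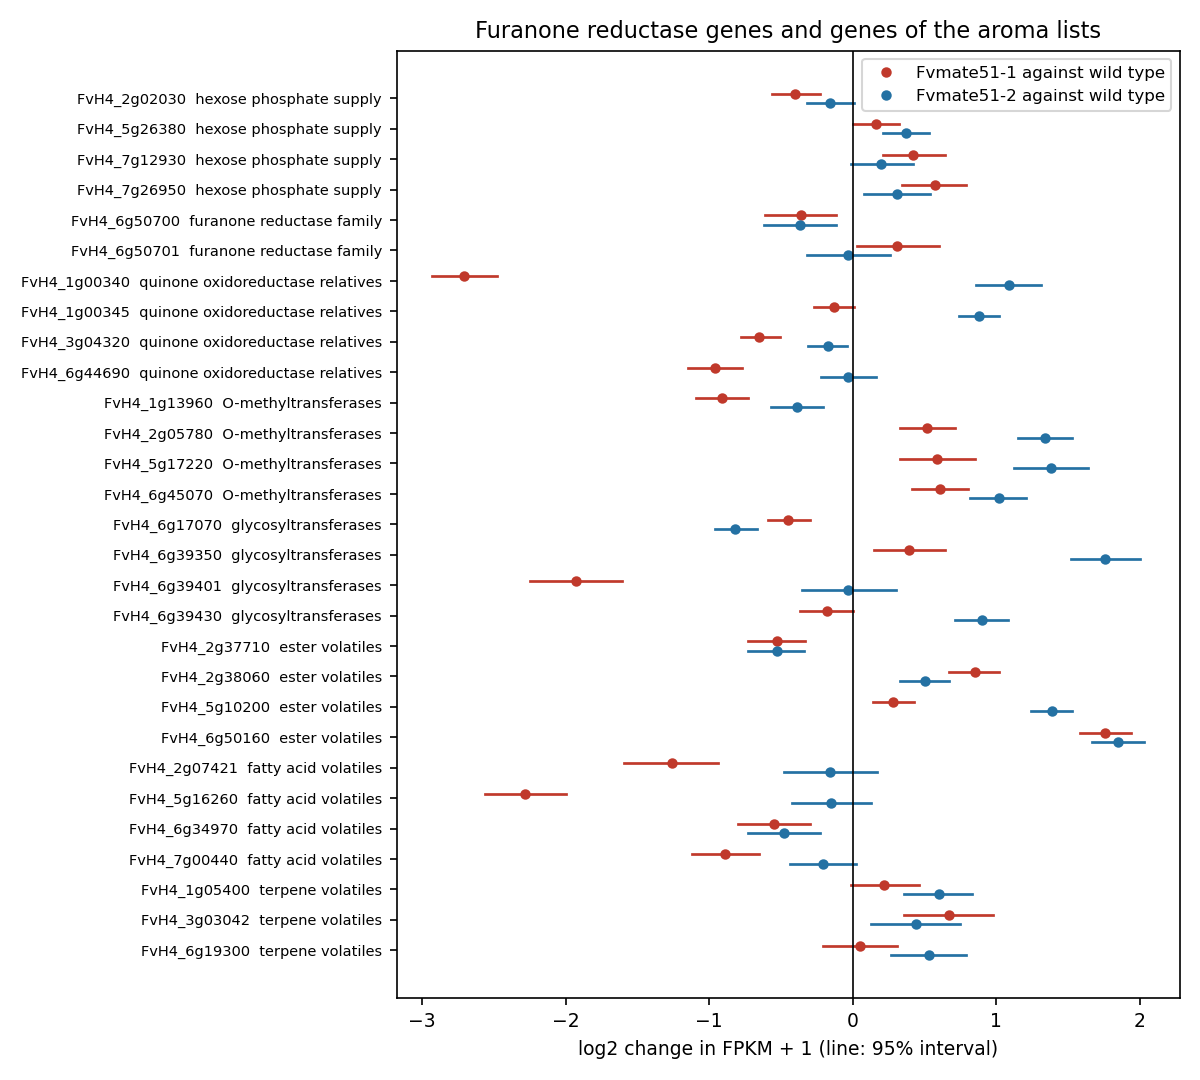
Log2 change of FPKM + 1 against wild type, with 95% intervals, in Fvmate51-1 and Fvmate51-2, for the tested furanone reductase genes and up to 4 genes per list with the lowest adjusted p for both lines. FvH4_6g50700 lies at -0.36 and -0.37, while FvH4_1g00340 lies at -2.71 in Fvmate51-1 and at 1.09 in Fvmate51-2.

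Other aroma pathways were compared in the same way. A list for alcohols and esters was matched by words such as alcohol acyltransferase, alcohol dehydrogenase and carboxylesterase. It also caught genes not named for ester synthesis, such as cinnamyl alcohol dehydrogenases. Genes named for other acetyltransferases, such as the abundant FvH4_7g18570 and FvH4_7g18640, do not carry these words. The counts therefore do not describe ester synthesis as a whole. In this list 26 of 66 were tested, with 4 higher, 6 lower and 16 not called (38.5% called, median log2 change -0.07). In Fvmate51-1 4 were higher and 11 lower (57.7% called), and in Fvmate51-2 7 were higher and 5 lower (46.2% called). Alcohol dehydrogenase-like 7 FvH4_2g37710 fell in both lines, from 15.4 ± 0.874 to 10.4 ± 0.982 and 10.3 ± 0.639, with a log2 change of -0.53 in each. FvH4_6g50160, named for a senescence-associated carboxylesterase of plant immunity, rose from 27.2 ± 1.6 to 94.5 ± 7.34 and 100 ± 5.07. The cinnamyl alcohol dehydrogenase genes FvH4_5g10200 (64.9 ± 3.46, 79 ± 1.63 and 171 ± 5.88) and FvH4_2g38060 (77.8 ± 6.32, 140 ± 7.96 and 110 ± 3.92) rose in both lines.

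Lipoxygenase pathway genes, whose products include green-leaf aldehydes and jasmonate, were lower in 8 of 12 tested cases of 26 and higher in 0 (66.7% called, median log2 change -0.39). In Fvmate51-1 9 were lower and 0 higher (75% called, against 35.5% of all tested genes). In Fvmate51-2 3 were lower and 2 higher (41.7% called, against 30.4%). The 13S-lipoxygenase FvH4_7g00440 fell in Fvmate51-1 from 188 ± 26.8 to 101 ± 8.03 and was 161 ± 6.22 in Fvmate51-2 (limma adjusted p = 0.154). FvH4_5g16260, named allene oxide synthase 3 after a tomato enzyme that acts on fatty acid hydroperoxides, fell in Fvmate51-1 from 5.22 ± 0.997 to 0.27 ± 0.0507 and was 4.58 ± 0.384 in Fvmate51-2 (limma adjusted p = 0.4). Another gene of that name, FvH4_2g07421, fell in Fvmate51-1 from 1.56 ± 0.487 to 0.0545 ± 0.0234 and was 1.28 ± 0.208 in Fvmate51-2 (limma adjusted p = 0.436). FvH4_6g34970, a further 13S-lipoxygenase, fell in both lines, from 2.55 ± 0.416 to 1.42 ± 0.149 and 1.53 ± 0.125.

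In the list of phenylpropene and terpene volatiles 3 of 20 genes were tested, and 3 were called higher (100% called, median log2 change 0.41). By line, 1 was higher in Fvmate51-1 and 3 in Fvmate51-2, and 0 were lower in either. The abundant FvH4_6g19300, named alpha-pinene synthase, stood at 3330 ± 543 and 3420 ± 102 and rose to 4770 ± 122 in Fvmate51-2 (limma adjusted p = 0.0069). For both lines its call was at the threshold (limma adjusted p = 0.0489). That call was lost without any 1 of the libraries other than wild type replicate 3 (highest limma adjusted p = 0.18, log2 change 0.23, without wild type replicate 2). FvH4_1g05400, of the same name, stood at 2.01 ± 0.117, 2.53 ± 0.42 and 3.55 ± 0.18, and the nerolidol synthase gene FvH4_3g03042 at 0.481 ± 0.17, 1.36 ± 0.381 and 0.998 ± 0.0917. FvH4_1g05400 did not pass in Fvmate51-1 (limma adjusted p = 0.124). The call of FvH4_3g03042 in Fvmate51-2 (limma adjusted p = 0.0368) was lost without wild type replicate 1 or 2 or any 1 of the Fvmate51-2 replicates (highest limma adjusted p = 0.112).

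The genes whose levels followed the reductase most closely were found by the root mean square difference of log2(FPKM + 1) over the 9 libraries, after each gene's mean was taken away, among 11440 tested genes with a Swiss-Prot name. The nearest was FvH4_5g11020, named for the exonuclease MYG1, at a root mean square difference of 0.0373. It was followed by FvH4_1g29800, named NADH-cytochrome b5 reductase 1, at 0.0487. The ribosomal protein genes FvH4_1g17640 (L26-1, 0.0504) and FvH4_6g37320 (L7-2, 0.0512) came next, and FvH4_6g35470, ribosomal protein SA, closed the list of 10 (0.0542). The others were FvH4_5g20020 (an RGG-repeat RNA-binding protein), FvH4_2g29800 (a subunit of the vacuolar proton pump), FvH4_7g30020 (fibrillarin 2, of the nucleolus), FvH4_1g12950 (mitochondrial gamma carbonic anhydrase 1) and FvH4_3g33630 (tetraspanin-4). FvH4_1g17640 stood at 396 ± 59.6, 300 ± 7.28 and 300 ± 20 FPKM, close to the reductase in its ratios though not in its level. All of them were highest in wild type replicate 3, as the reductase was. That peak and the similar ratios follow from how the genes were chosen, and the points share library, depth and scaling. FvH4_1g12950 was not called in Fvmate51-2 (limma adjusted p = 0.0657), and without wild type replicate 3 not for both lines (log2 change -0.19, limma adjusted p = 0.0551).

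**Figure D5:**
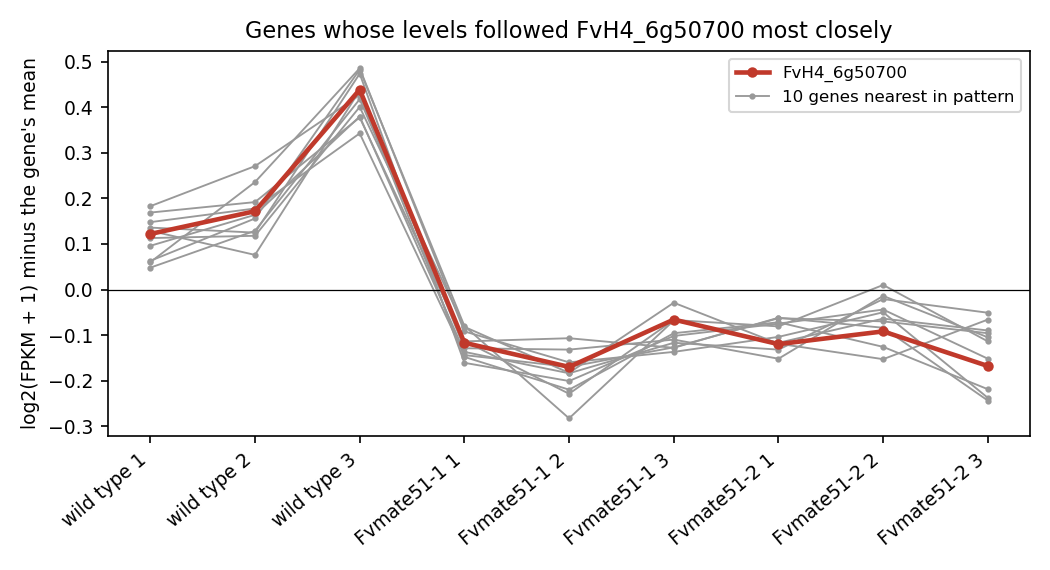
Log2(FPKM + 1) minus the gene's own mean over 9 libraries, for FvH4_6g50700 and the 10 genes with a Swiss-Prot name that lie nearest to it by root mean square difference (0.0373 to 0.0542). All lines peak in wild type replicate 3 and lie above 0 in every wild type library, which follows from choosing genes by this pattern.

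On chromosome 6 the genes around the reductase were quiet or far less abundant. FvH4_6g50680, which ends at 37682191 and is named CASP-like protein 4A3, a membrane protein family, was the only tested gene of the 3 before it. Its level was 31.1, 33.6 and 38.4 FPKM in wild type, 16.5, 17.5 and 16.4 in Fvmate51-1 and 21.5, 19.1 and 21.1 in Fvmate51-2. The groups did not overlap, and the gene fell in both lines (log2 change -0.99 and -0.71, limma adjusted p = 1.54e-05 and 0.000161). Of all tested genes, 12.4% had every mutant library below every wild type library. In 25.1% every Fvmate51-2 library lay above every Fvmate51-1 library, as it did here. FvH4_6g50670 and FvH4_6g50650 stayed at or below 0.918 FPKM in every library. Beyond FvH4_6g50701, FvH4_6g50702 and FvH4_6g50710 were at 0 in all 9 libraries.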

How the data were processed

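Polyadenylated RNA of fruit was sequenced on an Illumina platform, per the labels' protocols. Reads passed through featureCounts 2.0.6, StringTie 2.2.3, HISAT2 2.2.1 and fastp, per the submitters' processing notes, which give neither role nor order. The authors deposited FPKM per gene and library, scaled to gene length and library size, and the listed gene lengths. Within a library, products of FPKM and length were whole multiples of a smallest value (100% of values within 0.02 of a whole number), which gave counts. These are called fragments here, but whether a unit is a read pair or a single read is not known. Low counts were mostly even, such as 2, 6 and 7 of FvH4_4g34500 in wild type and 2, 8 and 2 of FvH4_1g00340 in Fvmate51-1. If single reads were counted, the Poisson intervals would be too narrow and the limit for 0 fragments too low.

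Tests used log2(FPKM + 1), a pseudocount of 1, and the 15890 genes that reached 1 FPKM in 3 or more libraries. A model of the 3 groups over all 9 libraries was fitted with limma 3.58.1 (R 4.3.3), with a mean-dependent prior and no covariate. For both lines together, the log2 change is the mean of the mutant group means minus the wild type mean. Benjamini-Hochberg adjustment ran over all genes tested, two-sided, with calls at 0.05. SEs are limma's, on the log2 scale. Fold changes are ratios of mean FPKM. The fit and scalings were tested on simulated data. That check set no requirement for changes as small as that of FvH4_6g50700.

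Lists were matched to Swiss-Prot names only, since domain names would put unrelated enzymes into them. Named genes were the family, up to 4 per list with the lowest adjusted p for both lines, the 10 nearest in pattern and the 3 neighbours on each side. The gene and lists were chosen with earlier results of these data known. Alternatives were other pseudocounts (0.1 and 0.01), filters, scalings, weights, a replicate block, voom on recovered fragments and leaving out libraries. Scaling to listed fragments and leaving out both libraries that stood apart were added after seeing the data. No sequence is shown.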

Additional observations from a re-analysis of the deposited data

Results flagged for a closer look

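FvH4_6g50700 itself was not among the genes whose change differed between the mutant lines. Of the genes named above, those listed here differed by the test of Fvmate51-2 minus Fvmate51-1, given as log2 differences called by limma.

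Among relatives of the reductase the differences were 3.79 for FvH4_1g00340, 1.01 for FvH4_1g00345, 0.47 for FvH4_3g04320 and 0.93 for the mitochondrial NAD(P)H dehydrogenase FvH4_6g44690, all higher in Fvmate51-2. FvH4_1g00340 was the gene that fell in one line and rose in the other. Its difference depends on the pseudocount, since Fvmate51-1 held 2 to 8 fragments of it, and ran from 3.69 to 7.75 over the alternatives. Among O-methyltransferases they were 0.82 for FvH4_2g05780, 0.41 for FvH4_6g45070, 0.79 for FvH4_5g17220, 0.52 for FvH4_1g13960 and -0.23 for FvH4_5g10440. The glycosyltransferases FvH4_6g39350, FvH4_6g39401 and FvH4_6g39430 were higher in Fvmate51-2 by 1.37, 1.91 and 1.08, and FvH4_6g17070 stood at -0.37.

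Lipoxygenase pathway genes were higher in Fvmate51-2, by 2.13 for FvH4_5g16260, 0.68 for FvH4_7g00440 and 1.11 for FvH4_2g07421. These too depend on the pseudocount where Fvmate51-1 was near 0: FvH4_5g16260 ran from 2.06 to 4.05 and FvH4_2g07421 from 1.03 to 4.4 over the alternatives. The cinnamyl alcohol dehydrogenase genes FvH4_5g10200 and FvH4_2g38060 differed by 1.11 and -0.34. The pinene synthase genes FvH4_1g05400 and FvH4_6g19300 differed by 0.37 and 0.48, triosephosphate isomerase FvH4_2g02030 by 0.24 and the chromosome neighbour FvH4_6g50680 by 0.28. The differences of FvH4_2g02030 and FvH4_6g50680 lost their call in TPM (log2 0.15 and 0.19, limma adjusted p = 0.111 and 0.109), and in several other alternatives, 12 and 11 in all.

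Further differences lost their call in some alternatives. FvH4_6g45070 stood at 0.06 with quantile normalization (limma adjusted p = 0.47) and at 0.41 with no filter on low values (limma adjusted p = 0.063). FvH4_1g05400 lost it in 6 of 22 alternatives (highest limma adjusted p = 0.0962, log2 0.31, without Fvmate51-1 replicate 1). FvH4_5g10440 lost it without Fvmate51-2 replicate 1 (log2 -0.2, limma adjusted p = 0.0986) or replicate 2 (-0.24 and 0.0623), and FvH4_6g19300 with no filter on low values (0.48 and 0.119).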

How the results depend on the processing

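The fall of FvH4_6g50700 against wild type kept its direction under every alternative run. The log2 changes were -0.43 to -0.14 for both lines, -0.42 to -0.07 for Fvmate51-1 and -0.43 to -0.2 for Fvmate51-2. In FPKM all mutant values lay below all wild type values. Only alternatives that rescale or normalize the libraries could therefore have turned the direction. The call was lost with no filter on low values for both lines (-0.37, limma adjusted p = 0.216), Fvmate51-1 (-0.36, 0.288) and Fvmate51-2 (-0.37, 0.297), and with quantile normalization for both lines (-0.14, 0.0917) and Fvmate51-1 (-0.07, 0.453). Fitting only the groups compared ended the call of Fvmate51-1 (-0.36, 0.0933), and for both lines that fit is the main one. The cause was not tested, except that quantile normalization fixes the value of each rank. Without 1 replicate the values ran from -0.43 to -0.27 for both lines (called each time), -0.42 to -0.26 for Fvmate51-1, -0.43 to -0.27 for Fvmate51-2 and -0.04 to 0.02 between the lines, where the sign turned without Fvmate51-1 replicate 3 (0.02) or Fvmate51-2 replicate 3 (0.01). For FvH4_6g50701 in Fvmate51-2 the values without 1 replicate ran from -0.06 to 0.02, above 0 without wild type replicate 2.

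The labels give no batch, and whether same-numbered libraries were handled together is not known. Deviations of same-numbered libraries correlated at -0.26 to 0.16, and those of differently numbered libraries of different groups at -0.18 to 0.21. These values cannot exclude a shared batch. With the replicate block the log2 changes were -0.36 for Fvmate51-1 (limma adjusted p = 0.0581) and -0.37 for Fvmate51-2 (0.0595), neither called, and -0.37 for both lines (0.0347), still called.

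Genes called numbered 5545, 5645, 4832 and 4390 for both lines, Fvmate51-1, Fvmate51-2 and between the lines, and 7191 between the lines with array weights. For the other 41 genes, 73 of 2465 recomputed values lost a call, 9 gained one and 1 changed sign. Most of these genes were chosen for a low adjusted p. Outside the furanone reductase family, results by line and between the lines were recomputed only where called. The counts therefore do not show how stable calls are in general. Depth did not limit FvH4_6g50700, and FvH4_4g34500 was too rare to compare.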

Other observations

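At least 1000 FPKM on average was reached by 50 tested genes, a limit set after seeing the data. For both lines together against wild type, by the mean of the line means, 14 of them were called lower, 10 higher and 26 not called. The median log2 change was -0.05, and 9 had a more negative change than FvH4_6g50700. In Fvmate51-1 8 were higher and 17 lower (median -0.16), and in Fvmate51-2 15 were higher and 10 lower (median 0.04). Of all tested genes, 16.8% were higher and 18.1% lower for both lines. The shares were 16.5% and 19% in Fvmate51-1, and 15.3% and 15.1% in Fvmate51-2. The counts of abundant genes are on the FPKM scale and were not repeated in TPM. Over all calls in Fvmate51-1, higher genes made up 46.4% in FPKM and 62% in TPM. Of the 10 most abundant genes, FvH4_3g20030, named metallothionein-like protein 1, stood at 7170 ± 931 FPKM in wild type, 11300 ± 2140 in Fvmate51-1 and 14500 ± 1090 in Fvmate51-2. The most abundant polygalacturonase, FvH4_6g41380, an enzyme that cuts pectin, stood at 4700 ± 69, 3710 ± 4.09 and 4710 ± 62. An MLP-like gene, FvH4_4g32700, stood at 5140 ± 294, 5200 ± 990 and 5340 ± 561, close to the level of the reductase in the mutant lines.

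Of 14 tested achene and seed genes, 10 were lower and 2 higher in Fvmate51-2 (85.7% called, against 30.4% of all tested genes, median log2 change -0.91). In Fvmate51-1 2 were lower and 2 higher (28.6% called, against 35.5%, median -0.27). Of 34 tested fruit flesh genes, 11 were lower and 3 higher in Fvmate51-1 (41.2% called, against 35.5% of all tested genes, median -0.22). In Fvmate51-2 15 were lower and 4 higher (55.9% called, against 30.4%, median -0.25). Their part in the level of FvH4_6g50700 was not tested.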
